A study of Mus musculus with 8 samples.

Results

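The 34 genes described here encode enzymes and transporters of glycolysis and products of the response to low oxygen, and 33 of them were measurable in bone marrow derived macrophages of the mouse. They were chosen by name, as the non-control array probes whose deposited gene name is one of the 34, with the brightest probe standing for each gene, out of 31791 named genes on the array. The 34 names matched 52 probes. One gene, Mxi1, had a single probe that was well above background on 0 of 8 arrays in both channels and was not tested.

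The study removed Thoc5, a subunit of the mRNA export complex THO, from macrophages growing under CSF-1, the cytokine that drives macrophage differentiation. There were 4 groups of 2 dual-colour arrays. Flox cells with tamoxifen came from ERT2 Cre Thoc5 (flox/flox) mice and were stimulated with tamoxifen, which activates the Cre recombinase. Flox cells without tamoxifen had the same genotype, and both control groups, with and without tamoxifen, came from ERT2 Cre mice without floxed Thoc5, so all 4 groups carried the Cre. The background of the mice was C57BL/6 x B6:129 Ola, and ages were not given in the sources used here. Each array compared cytoplasmic RNA of day 3 with that of day 0 from cells of 1 genotype and experiment, and both arrays of a genotype in an experiment used 1 day 0 RNA. The 2 arrays of a group came from 2 biological experiments, and experiment 2 used the opposite dyes, so that experiment, dye direction and slide are 1 split. Values are log2 ratios of day 3 over day 0, and a change carries the standard error of the limma fit. A gene counts as called where the adjusted p of that fit (Benjamini-Hochberg, over all genes) was under 0.05.

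Glycolysis splits glucose into pyruvate in the cytosol, and lactate dehydrogenase turns pyruvate into lactate, which monocarboxylate transporters carry out of the cell. When oxygen is scarce, prolyl hydroxylases no longer mark the transcription factor subunit HIF-1 alpha for destruction, and HIF then binds hypoxia response elements with the core RCGTG and raises many glycolytic genes. Macrophages are known for a strong reliance on glycolysis when they are activated, and for HIF activity at inflamed sites.

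Promoter windows of the members were searched for the core of the response element. The list names genes of the response to low oxygen, so the share of matches is not independent of the choice by name. RefSeq promoter windows of 250 bases before a start, on GRCm38.p6, were available for 31 of the 34 genes, with 46 windows in all. Slc2a3, Bnip3l and Ndrg1 had no window in the table used. ACGTG or GCGTG on either strand was found in at least 1 window of 28 of the 31 genes (90.3%), against 41.5% of 27025 genes and 47.1% of 17492 protein-coding genes. Among single windows the share was 80.4% for the members, 44.0% for protein-coding genes and 38.6% for all windows. The members' windows also had a higher median GC content, 60.4% against 55.6% for protein-coding genes, and both motifs hold CG. Gpi1, Tpi1 and Eno2 had no match in any window. Hk1, Pfkm, Aldoa, Pdk1, Vegfa and Mxi1 each had a window without a match as well as a matching window. These are matches of letters and not binding data. Of the 5 windows below, Ldha and Bnip3 are shown as genes that were lower at day 3, Hk2 and Ankrd37 as genes with the lowest or nearly the lowest tamoxifen differences in flox cells, and Eno2 as the member with the highest one. Capitals mark matches to ACGTG or GCGTG on either strand (CACGT and CACGC on the strand printed), and matches that overlap run together, as in CACGTG.
Ldha, chr7:46845554-46845803, plus strand: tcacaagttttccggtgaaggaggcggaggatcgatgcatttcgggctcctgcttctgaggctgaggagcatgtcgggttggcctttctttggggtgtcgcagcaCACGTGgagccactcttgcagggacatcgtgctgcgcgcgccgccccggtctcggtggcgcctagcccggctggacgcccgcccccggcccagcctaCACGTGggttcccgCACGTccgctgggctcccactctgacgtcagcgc
Bnip3, chr7:138909507-138909756, minus strand: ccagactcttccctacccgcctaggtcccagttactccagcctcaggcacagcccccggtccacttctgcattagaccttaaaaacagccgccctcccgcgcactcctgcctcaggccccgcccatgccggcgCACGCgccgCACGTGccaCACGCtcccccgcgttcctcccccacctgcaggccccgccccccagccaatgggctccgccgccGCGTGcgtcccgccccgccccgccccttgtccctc
Hk2, chr6:82774455-82774704, minus strand: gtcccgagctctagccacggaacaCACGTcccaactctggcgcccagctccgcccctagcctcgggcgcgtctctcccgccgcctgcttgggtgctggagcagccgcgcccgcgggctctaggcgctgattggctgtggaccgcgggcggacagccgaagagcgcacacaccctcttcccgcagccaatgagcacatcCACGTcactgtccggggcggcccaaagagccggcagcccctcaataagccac
Ankrd37, chr8:45999851-46000100, minus strand: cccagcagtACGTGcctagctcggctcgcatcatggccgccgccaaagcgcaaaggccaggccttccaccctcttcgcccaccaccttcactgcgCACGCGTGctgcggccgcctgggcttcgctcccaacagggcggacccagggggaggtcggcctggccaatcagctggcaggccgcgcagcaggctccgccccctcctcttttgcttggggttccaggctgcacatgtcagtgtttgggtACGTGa
Eno2, chr6:124769674-124769923, minus strand: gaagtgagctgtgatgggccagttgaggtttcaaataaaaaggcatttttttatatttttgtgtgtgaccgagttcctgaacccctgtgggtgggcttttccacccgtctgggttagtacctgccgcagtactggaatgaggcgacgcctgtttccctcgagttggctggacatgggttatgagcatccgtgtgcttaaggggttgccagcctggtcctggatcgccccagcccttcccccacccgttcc
The first Ldha window holds 5 matches, 2 pairs of which overlap as CACGTG, in 3 separate stretches. The Bnip3 window also holds 5 matches, in 4 stretches. Ankrd37 has 4 matches in 3 stretches, Hk2 has 2 and Eno2 has 0. 

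A channel had 51.2% to 57.9% of its probes well above background, and saturation affected 0 spots. Thoc5 itself, the check of the labels, had ratios of -3.04 and -3.02 in flox cells with tamoxifen, -0.74 and -0.77 in flox cells without it, -0.21 and -0.15 in control cells with tamoxifen, and -0.40 and -0.28 in control cells without it. Across the 33 members the 2 arrays of a group correlated at r = 0.96 in flox cells with tamoxifen, 0.96 in flox cells without, 0.95 in control cells with and 0.85 in control cells without tamoxifen. These correlations run across genes, which do not replicate one another, and the precision of each value is limited by its 2 arrays. Macrophage markers had median ratios between 0.18 and 0.92 on the 8 arrays, and those of neutrophils between -3.34 and -3.07. Neutrophil RNA was thus lower at day 3 in every group, and fewer cells of a type cannot be told apart from less RNA per cell in any ratio below. Stromal markers stood apart on 1 array: their median ratio was 0.45 on the second array of flox cells with tamoxifen, against -0.76 on the first and between -1.01 and -0.38 on the 6 arrays of the other groups.

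The first question was how the members changed over 3 days under CSF-1. Most were lower at day 3, in each of the 4 groups. In flox cells with tamoxifen 23 of 33 members were lower and 3 higher, against 33.4% of 17968 genes lower and 25.5% higher (58.9% called either way). In flox cells without tamoxifen 22 were lower and 2 higher (33.4% and 23.8% of all genes, 57.2% either way). In control cells with tamoxifen 23 were lower and 1 higher (33.8% and 23.9%, 57.7% either way), and in control cells without it 20 were lower and 1 higher (34.1% and 23.3%, 57.4% either way). The median change of the members was -0.78 in flox cells with tamoxifen, -0.56 in flox cells without, -1.03 in control cells with and -0.88 in control cells without tamoxifen. Over all genes the medians were between -0.06 and -0.05. Groups of 1 genotype share their day 0 RNA, so the counts are not independent of each other.

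**Figure D1:**
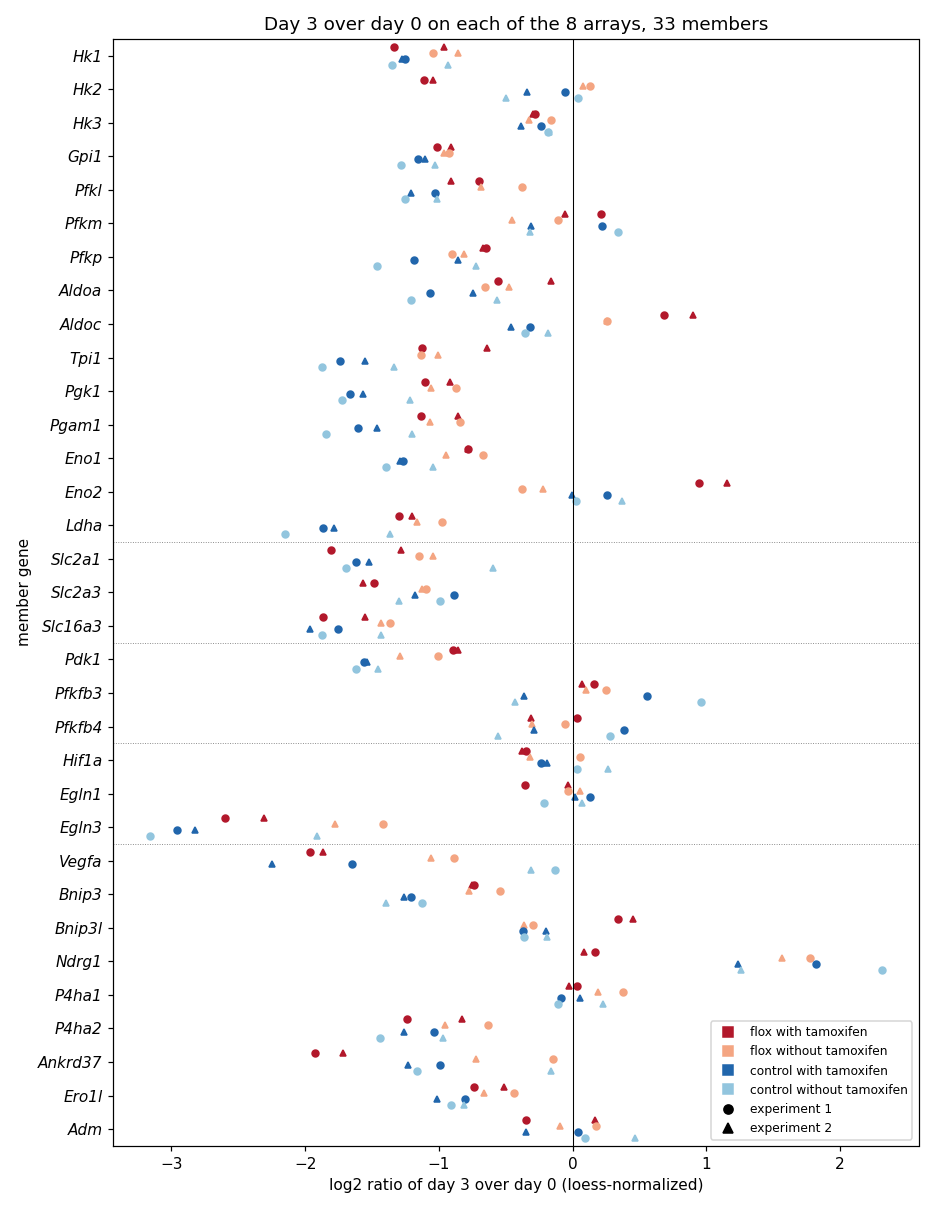
Log2 ratio of day 3 over day 0 (horizontal axis) of the 33 measurable members, ordered by role, on each of the 8 arrays. Colours are the 4 groups, circles experiment 1 and triangles experiment 2, and dotted lines part the roles (enzymes, transporters, flux regulators, HIF and its hydroxylases, other hypoxia genes). Most points lie left of 0, with Egln3 lowest and Ndrg1 highest outside flox cells with tamoxifen.

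By their brightest probes, the glycolytic enzymes fell along nearly the whole pathway. Of 15 enzyme genes, 12 were lower in flox cells with tamoxifen, 12 in flox cells without, 12 in control cells with and 11 in control cells without tamoxifen. Over all genes 33.4% to 34.1% were lower in these groups. Ldha, which makes lactate, had ratios of -1.30 and -1.20 in flox cells with tamoxifen, -0.97 and -1.16 in flox cells without, -1.87 and -1.79 in control cells with, and -2.15 and -1.36 in control cells without tamoxifen. It was below 0 on all 8 arrays and lower on the 4 control arrays than on the 4 flox arrays. In control cells without tamoxifen its change was -1.76 ± 0.16, a 3.38-fold lower level at day 3 (limma adjusted p = 0.000245).

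Triose phosphate isomerase, Tpi1, had ratios of -1.13 and -0.64 in flox cells with tamoxifen, -1.13 and -1.01 in flox cells without, -1.74 and -1.55 in control cells with, and -1.87 and -1.34 in control cells without tamoxifen. Pgam1, the phosphoglycerate mutase, had -1.13 and -0.86 in flox cells with tamoxifen, -0.84 and -1.07 in flox cells without, -1.61 and -1.46 in control cells with, and -1.85 and -1.20 in control cells without tamoxifen. For both genes the flox and the control arrays did not overlap. Arrays of a genotype share day 0 RNA within an experiment, so they are not independent. The share of all genes with such a gap was not counted. Both limits also hold for Ldha and for the further genes below with such a gap. The means of flox cells also lay above those of control cells for Pgk1, Eno1 and Aldoa, whose changes were -1.01, -0.78 and -0.36 in flox cells with tamoxifen, -0.97, -0.81 and -0.56 in flox cells without, -1.62, -1.28 and -0.90 in control cells with, and -1.47, -1.22 and -0.88 in control cells without tamoxifen. Hk1, the hexokinase gene that most tissues use, changed by -1.15, -0.95, -1.27 and -1.14 in the same order of groups, and Gpi1, Pfkl and Pfkp were also lower in each group, by 0.53 to 1.16 on the log2 scale. Hk3, a hexokinase of myeloid cells, moved little: its largest change was -0.31 ± 0.07 in control cells with tamoxifen. Aldoc, a second aldolase best known from brain, went the other way in flox cells, with changes of 0.79 ± 0.09 with tamoxifen and 0.26 ± 0.09 without, against -0.39 ± 0.09 in control cells with tamoxifen and -0.27 ± 0.09 without.

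The size of the fall in Ldha, Tpi1, Pfkp and Hk1 depended on the probe. For Ldha, Tpi1 and Pfkp some probes showed no fall in some groups. The Ldha probe used above lies at chr7:54110937-54110996 of mm9. A second probe at chr7:54107294-54107353 averaged -0.28 in flox cells with tamoxifen, -0.08 in flox cells without, -0.51 in control cells with and -0.49 in control cells without tamoxifen. The third, at chr7:54103010-54103069, averaged 0.43, 0.66, 0.14 and 0.13 in that order of groups. Only the brightest of the 3 thus gave a clear fall, and the third had a mean above 0 in each group. With the mean of the 3 probes Ldha changed by -0.71 in control cells without tamoxifen (limma adjusted p = 0.0165), where its adjusted p ranged from 2.1e-13 to 0.0165 over the alternatives. Tpi1 had a second probe at 0.10 in flox cells with tamoxifen, -0.10 in flox cells without, -0.70 in control cells with and -0.67 in control cells without tamoxifen. A second, dimmer Pfkp probe averaged 0.05, -0.43, -0.49 and -0.73 in that order of groups. A dimmer Hk1 probe averaged -0.25, -0.22, -0.39 and -0.26. Bright glycolytic genes have processed copies in the mouse genome whose RNA such probes could share, which was not tested. The Pgk1 probe is placed on chromosome 3 by the deposited annotation, whereas RefSeq has Pgk1 on chromosome X. The levels of all these genes are uncertain. In control cells without tamoxifen the 3 Gpi1 probes averaged -1.16, -1.17 and -1.20, the 2 Slc16a3 probes -1.65 and -1.71 and the 3 Bnip3 probes -1.26, -1.24 and -1.07, though the probes of Gpi1 and of Slc16a3 overlap each other. For the tamoxifen difference in flox cells the Bnip3 probes gave -0.09, 0.01 and -0.36, and the 3 Ldha probes -0.18, -0.20 and -0.22.

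**Figure D2:**
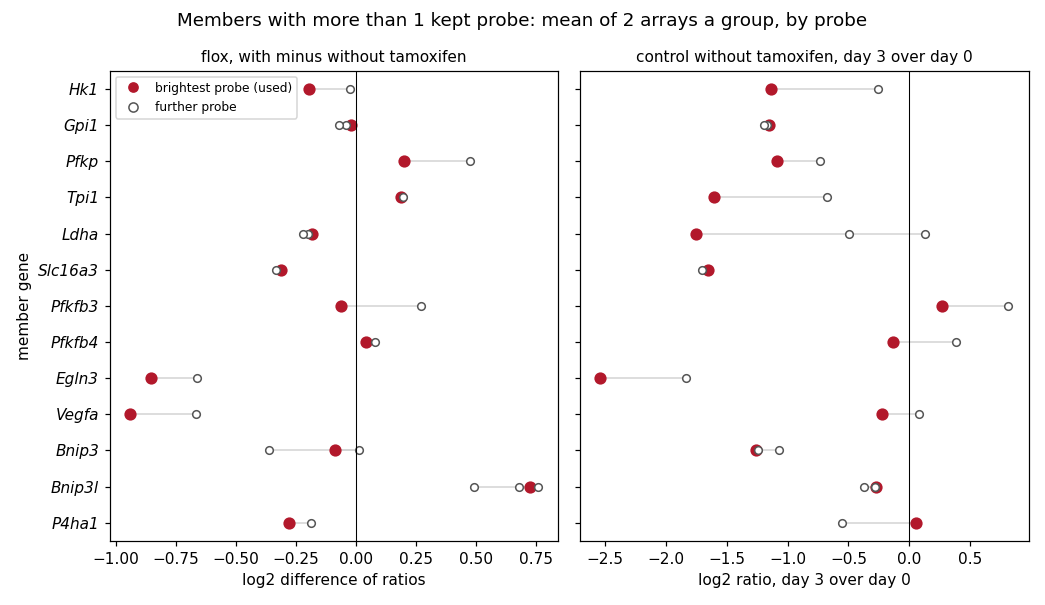
Members with more than 1 kept probe. Left, log2 tamoxifen difference in flox cells; right, log2 ratio of day 3 over day 0 in control cells without tamoxifen; each point is the mean of 2 arrays for 1 probe, filled for the brightest. The 4 Bnip3l probes lie between 0.49 and 0.76 on the left, whereas the 3 Ldha probes span -1.76 to 0.13 on the right.

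The transporters were lower in all groups. Slc16a3, which exports lactate, had ratios of -1.87 and -1.55 in flox cells with tamoxifen, -1.37 and -1.43 in flox cells without, -1.76 and -1.96 in control cells with, and -1.87 and -1.43 in control cells without tamoxifen. All 8 arrays were below 0, and the ranges of the groups overlapped in part. In control cells without tamoxifen the change was -1.65 ± 0.12 (3.14-fold lower, limma adjusted p = 0.000131). The glucose transporter Slc2a1 changed by -1.54 ± 0.17 in flox cells with tamoxifen, -1.10 ± 0.17 in flox cells without, -1.57 ± 0.17 in control cells with and -1.14 ± 0.17 in control cells without tamoxifen. Slc2a3, a second glucose transporter, fell by 1.53, 1.11, 1.03 and 1.14 on the log2 scale in that order of groups.

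Among the regulators of flux, Pdk1, the kinase that shuts pyruvate out of the mitochondrial cycle, was lower throughout. Its ratios were -0.89 and -0.86 in flox cells with tamoxifen, -1.01 and -1.29 in flox cells without, -1.56 and -1.54 in control cells with, and -1.62 and -1.45 in control cells without tamoxifen. Flox and control arrays did not overlap, and the change in control cells without tamoxifen was -1.54 ± 0.09 (limma adjusted p = 7.05e-05). Pfkfb3 and Pfkfb4, which set the level of the activator fructose 2,6-bisphosphate, were called in 0 of the 4 groups by their brightest probes. In the control groups these probes were above 0 in experiment 1 and below it in experiment 2. Pfkfb3, for example, had 0.55 and -0.36 in control cells with tamoxifen and 0.96 and -0.43 in control cells without it. A second, much dimmer Pfkfb3 probe was above 0 on all 8 arrays, with group means between 0.57 and 0.84. It was well above background at day 3 on 8 arrays and at day 0 on 5. The dimmer Pfkfb4 probe was also above 0 on each array, with group means between 0.38 and 0.91. That probe was well above background at day 3 on 5 arrays and at day 0 on 0.

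Egln3, the HIF prolyl hydroxylase that is itself induced by HIF, showed the lowest mean of all members. Its ratios were -2.60 and -2.31 in flox cells with tamoxifen, -1.42 and -1.78 in flox cells without, -2.96 and -2.82 in control cells with, and -3.16 and -1.91 in control cells without tamoxifen. Each array was below 0, and the 2 arrays of control cells without tamoxifen lay the farthest apart. The change in control cells without tamoxifen was -2.54 ± 0.24, a 5.81-fold lower level (limma adjusted p = 0.000295). A second Egln3 probe averaged -1.73, -1.07, -2.07 and -1.83 in the order of groups above. Hif1a, the HIF subunit itself, was called lower in flox cells with tamoxifen only (-0.36 ± 0.11, limma adjusted p = 0.0274), and its changes in the other groups were -0.13, -0.21 and 0.15; the difference between groups was not called in any comparison below. Egln1, the main oxygen sensor of this family, was called in 0 groups, with changes between -0.20 and 0.08.

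Of the other hypoxia-induced genes, Bnip3, P4ha2 and Ero1l, which serve mitophagy, collagen hydroxylation and disulphide formation, were lower in each group. Bnip3 had ratios of -0.74 and -0.75 in flox cells with tamoxifen, -0.54 and -0.77 in flox cells without, -1.21 and -1.26 in control cells with, and -1.13 and -1.40 in control cells without tamoxifen. Here too the flox arrays all lay above the control arrays. Ndrg1, a stress and differentiation gene induced by hypoxia in many cells, was the one member called higher in both control groups. Its change without tamoxifen was 1.79 ± 0.16 (3.45-fold, limma adjusted p = 0.000263), with ratios of 2.31 and 1.26. P4ha1 and Adm were called in 0 of 4 groups; a second P4ha1 probe, dimmer than the first, averaged between -0.79 and -0.56 in the 4 groups, where the first averaged between -0.02 and 0.28.

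Genes of related pathways that were not among the members were also measured over the 3 days. Of 19 further glycolysis genes 8 were lower in flox cells with tamoxifen, 7 in flox cells without, 8 in control cells with and 8 in control cells without tamoxifen, and of 42 further hypoxia genes 20, 24, 23 and 21 in that order of groups. Of 23 genes of pyruvate oxidation and the pentose phosphate pathway 12, 8, 12 and 12 were lower, and of 14 partners of HIF, of its hydroxylases and of MYC-MAX 6, 8, 5 and 4. Over all genes 33.4%, 33.4%, 33.8% and 34.1% were lower in that order of groups. The lowest of these counts, such as 7 of 19, 8 of 23 and 4 of 14, were near that share. In control cells without tamoxifen, where 34.1% of all genes were lower and 23.3% higher, 1 of the 19 glycolysis genes was higher and their median was -0.09. Gapdh, which follows the aldolase step, changed by -1.33, and Pkm2, the deposited name of the pyruvate kinase of muscle and macrophages, by -1.37. Of the hypoxia genes 6 were higher. Mif, a cytokine gene, changed by -1.39, and Gbe1, the glycogen branching enzyme, by -1.45, whereas Hif3a, a HIF paralogue, was 1.52 higher on the log2 scale. Of the pyruvate and pentose phosphate genes 3 were higher, as were 3 of the partners, among which Mycn had the lowest change (-2.20). In this comparison the neutrophil markers were lower in 14 of 15 measured genes, the megakaryocyte markers in 10 of 10 (median -1.75) and the cycling markers in 9 of 9 (median -1.90). The erythroid markers were lower in 4 of 8, the stromal in 4 of 9, and the B lineage markers in 3 of 6 with 2 higher, whereas 7 of 12 macrophage markers were higher and 1 lower. Their part in the members' falls was not tested.

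The second question was what tamoxifen, which deletes Thoc5 in flox cells, did to the members at day 3. Tamoxifen changed 6 of 33 members in flox cells, 3 higher and 3 lower, against 9.02% of 17968 genes called (4.88% higher and 4.15% lower). The median change of the members was -0.09, against -0.01 over all genes. Eno2, Bnip3l and Aldoc were higher, and Ndrg1, Hk2 and Vegfa lower. In control cells tamoxifen changed 0 of 33 members in limma, with 0 genes called of 17966 (0%); 1 member and 994 genes had an unadjusted p under 0.05.

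**Figure D3:**
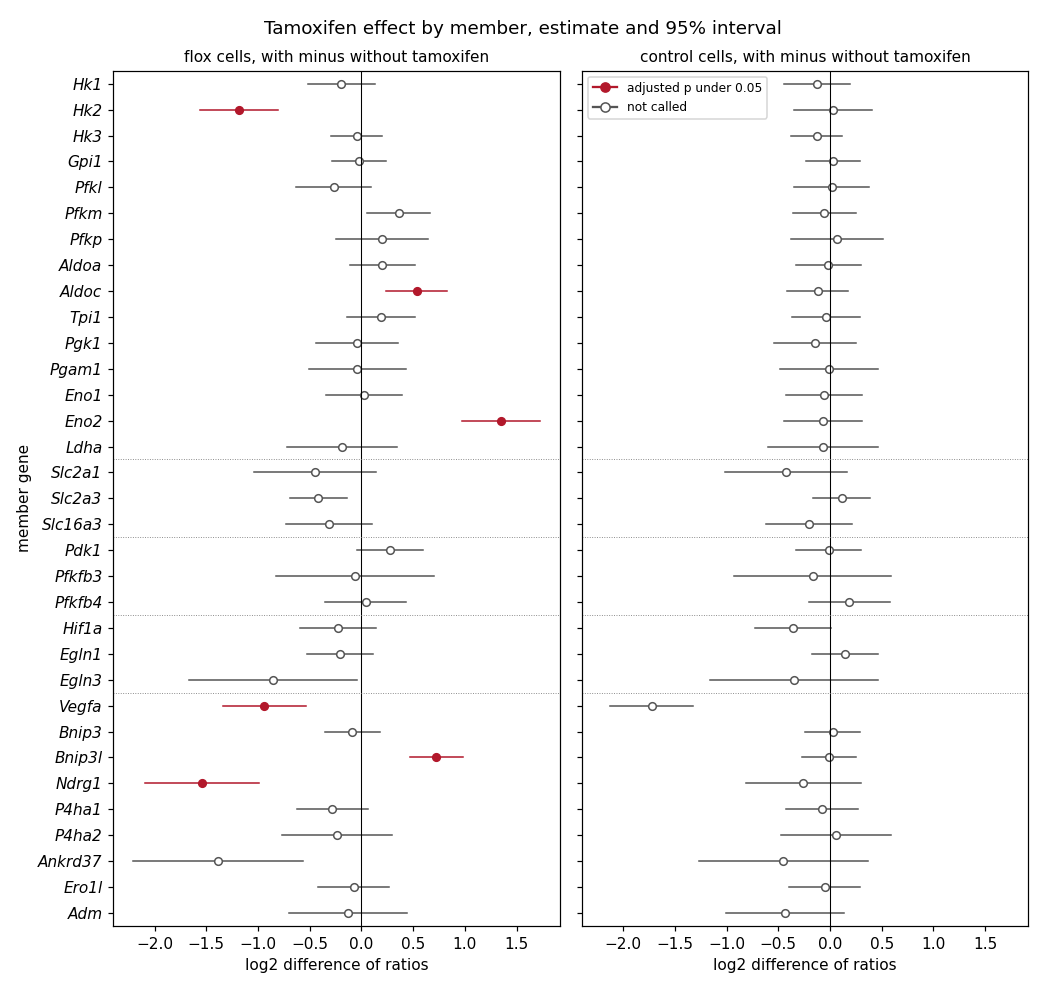
Log2 difference of ratios with minus without tamoxifen for each member, with the 95% interval of the limma fit, in flox cells (left) and control cells (right), 2 arrays per group. Filled red points are called at an adjusted p under 0.05. Eno2, Bnip3l and Aldoc lie to the right and Ndrg1, Hk2 and Vegfa to the left in flox cells, and the Vegfa interval lies below 0 in both panels.

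Eno2, the enolase best known from neurons, had ratios of 0.94 and 1.15 in flox cells with tamoxifen, against -0.38 and -0.22 in flox cells without. In control cells it had 0.26 and 0.00 with tamoxifen and 0.03 and 0.37 without. Flox cells with tamoxifen thus lay above the other 6 arrays. Tamoxifen raised Eno2 in flox cells 2.55-fold (1.35 ± 0.16, 95% interval 0.97 to 1.72, limma adjusted p = 0.00706), with 1.32 within experiment 1 and 1.38 within experiment 2. It is a dim probe (chr6:124710388-124710447 of mm9), well above background at day 3 on 1 of the 2 arrays of flox cells without tamoxifen, and its difference was 2.06 in the deposited value table. Eno1, the abundant enolase, differed by 0.02 ± 0.15.

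Hk2, the inducible hexokinase that starts glycolysis in many growing cells, had ratios of -1.11 and -1.05 in flox cells with tamoxifen, against 0.13 and 0.08 in flox cells without. Control cells had -0.06 and -0.34 with tamoxifen and 0.04 and -0.49 without. Only in flox cells with tamoxifen were both values below -1, and these did not overlap with any other group. The tamoxifen difference in flox cells was -1.18 ± 0.16 (2.27-fold lower, interval -1.56 to -0.80, limma adjusted p = 0.0101), with -1.24 and -1.13 within the 2 experiments, for the probe at chr6:82675056-82675115 of mm9. Hk1 and Hk3 differed by -0.20 ± 0.13 and -0.05 ± 0.10, so of the 3 hexokinase genes Hk2 alone was called.

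Ndrg1 had ratios of 0.17 and 0.09 in flox cells with tamoxifen, against 1.78 and 1.57 in flox cells without. The control values were 1.82 and 1.24 with tamoxifen and 2.31 and 1.26 without. The rise over 3 days seen on the other 6 arrays was thus near 0 in flox cells with tamoxifen (0.13 ± 0.16). The tamoxifen difference in flox cells was -1.54 ± 0.23, the lowest of all members (2.91-fold lower, interval -2.10 to -0.99, limma adjusted p = 0.0135), with -1.61 and -1.48 within the experiments. The probe lies at chr15:66761057-66761116 of mm9.

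Bnip3l, which marks mitochondria for removal and is a paralogue of Bnip3, had ratios of 0.34 and 0.45 in flox cells with tamoxifen, against -0.29 and -0.37 in flox cells without. Control cells had -0.37 and -0.20 with tamoxifen and -0.36 and -0.19 without. It was above 0 on the 2 arrays of flox cells with tamoxifen and below 0 on the other 6. The difference in flox cells was 0.73 ± 0.11 (1.65-fold higher, interval 0.46 to 0.99, limma adjusted p = 0.0135), and the 4 probes of the gene gave 0.73, 0.76, 0.68 and 0.49. Bnip3 itself differed by -0.09 ± 0.11.

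Vegfa, the vascular growth factor and a classic HIF target, had ratios of -1.96 and -1.86 in flox cells with tamoxifen, against -0.88 and -1.06 in flox cells without. In control cells the ratios were -1.65 and -2.25 with tamoxifen, against -0.13 and -0.31 without. In both genotypes the arrays with tamoxifen lay below those without it and did not overlap with them. The difference was -0.94 ± 0.17 in flox cells (1.92-fold lower, limma adjusted p = 0.0227). It was larger in size in control cells, -1.73 ± 0.17 (3.31-fold lower, interval -2.13 to -1.32), where it had the only unadjusted p under 0.05 among the members (2.94e-05) and was not called over all genes (limma adjusted p = 0.161). A second Vegfa probe gave -0.67 in flox cells and -1.20 in control cells. With median centring in place of loess the Vegfa change in control cells was called (-1.61, limma adjusted p = 1.32e-07), the 1 member called there.

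Aldoc had ratios of 0.69 and 0.90 in flox cells with tamoxifen, against 0.26 and 0.26 in flox cells without, -0.32 and -0.46 in control cells with tamoxifen and -0.35 and -0.18 in control cells without it. The 4 flox arrays lay above the 4 control arrays. The tamoxifen difference in flox cells was 0.53 ± 0.12 (1.45-fold higher, limma adjusted p = 0.0464), with 0.43 and 0.64 within the experiments. This call was lost in 10 of 19 processing alternatives.

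A pair of further members came close to the threshold. Ankrd37, a small ankyrin repeat gene under HIF control, had ratios of -1.92 and -1.72 in flox cells with tamoxifen, -0.15 and -0.72 in flox cells without, -0.99 and -1.23 in control cells with, and -1.16 and -0.16 in control cells without tamoxifen. Its tamoxifen difference in flox cells was -1.39 ± 0.34 (limma adjusted p = 0.0566), and the replicates of 2 groups lay far apart. Slc2a3 had -1.49 and -1.57 in flox cells with tamoxifen, -1.09 and -1.12 in flox cells without, -0.89 and -1.18 in control cells with, and -0.99 and -1.30 in control cells without tamoxifen, and its difference in flox cells was -0.42 ± 0.12 (limma adjusted p = 0.0761). The other 25 members had tamoxifen differences in flox cells between -0.85 for Egln3 and 0.36 for Pfkm, of which 2, these same 2, had an unadjusted p under 0.05. Over all genes 4481 of 17968 had such a p.

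**Figure D4:**
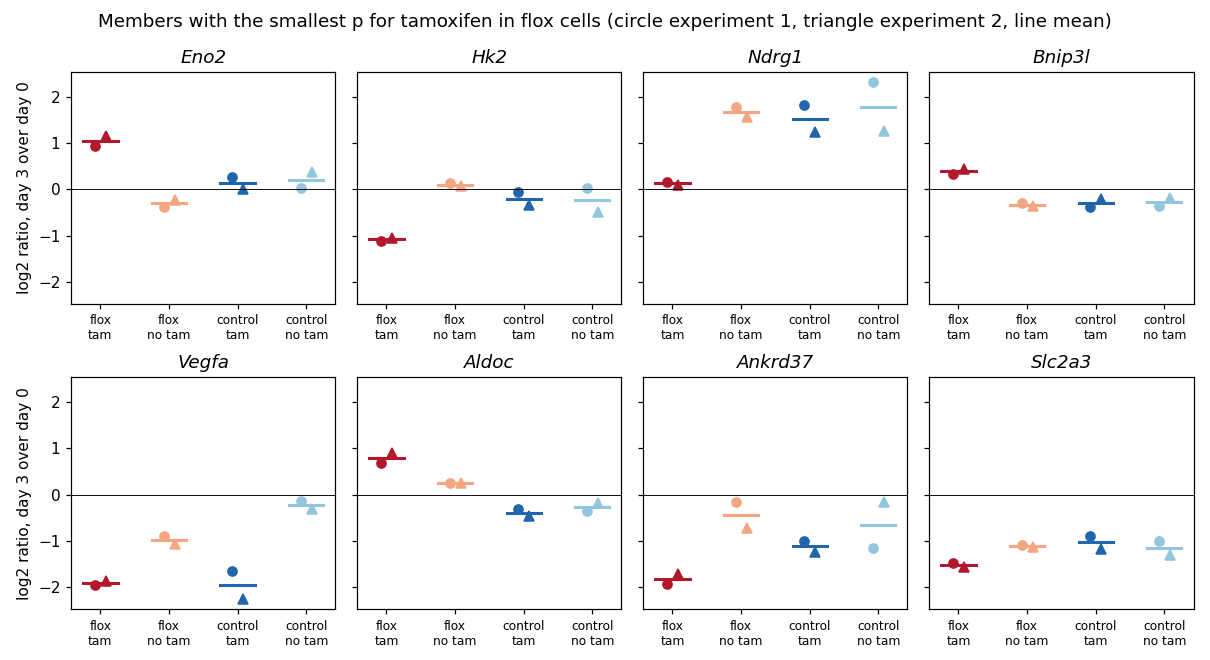
Log2 ratio of day 3 over day 0 (vertical axis) of the 8 members with the smallest p for tamoxifen in flox cells, by group; circles are experiment 1, triangles experiment 2 and lines the mean of 2 arrays. Each gene except Vegfa has both arrays of flox cells with tamoxifen outside the range of the other 6. The genes were picked by p from these same values, so a gap to flox cells without tamoxifen is no independent support. For Vegfa the arrays with tamoxifen lie below those without in both genotypes.

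These calls rested on few arrays. Without the first array of flox cells with tamoxifen 1 member was called, Eno2, without the second 2, Hk2 and Ndrg1, and without either array of flox cells without tamoxifen 0. All 8 members with the smallest p kept their sign in each of these fits. Leaving out either array of control cells with tamoxifen gave 5 calls and leaving out either array of control cells without tamoxifen gave 8. The share of all genes called also moved with the arrays left out. With no replicate block 2.62% of all genes and 3 members were called, Eno2 and Bnip3l higher and Hk2 lower. Median centring in place of loess, with 7.18% of all genes called, gave 1 member higher and 5 lower. These were without Bnip3l and Aldoc and with Ankrd37 and Egln3. With only the arrays of the 2 flox groups 11 members were called, 4 higher and 7 lower, against 25.5% of all genes. On the second array of flox cells with tamoxifen, where stromal markers were high, the summed stromal day 3 intensity was 67533, against 25342 on the first, and 27566 and 20160 in flox cells without tamoxifen; 9 and 8 of the 9 measured stromal genes were well above background on these 2 arrays with tamoxifen. Without that array the differences of Eno2, Hk2, Ndrg1, Bnip3l and Vegfa were 1.28, -1.36, -1.81, 0.71 and -1.15. Cycling markers had a median tamoxifen difference of -0.29 in flox cells, with 2 of 9 lower, and 0.47 in control cells, with 0 of 9 called. In flox cells tamoxifen also left 1 of 9 stromal markers higher (median 0.59), 2 of 15 neutrophil markers higher, 1 of 10 megakaryocyte markers higher and 2 lower, 1 of 6 B lineage markers lower, 1 of 12 macrophage markers higher and 2 lower, and 0 of 8 erythroid markers called. The part of these markers in the members' changes was not tested.

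Tamoxifen also changed further genes of these pathways in flox cells, where 9.02% of all genes were called. Of 19 glycolysis genes outside the members 1 was higher, Galm (0.87), which converts the forms of glucose and galactose, and 2 were lower, the ADP-dependent glucokinase gene Adpgk (-0.80) and the muscle enolase gene Eno3 (-0.54). Of 42 further hypoxia genes 7 were higher and 2 lower. Rora, a nuclear receptor, was 1.34 higher, Slc6a8, the creatine transporter, 1.17, Cited2, a transcriptional partner that restrains HIF, 0.66, and Bhlhe41, a circadian repressor, 0.62, while Cdkn1a, the cell cycle inhibitor p21, changed by -0.56 and Higd1a, a mitochondrial protein gene, by -0.51. Of 23 genes of pyruvate oxidation and the pentose phosphate pathway 1 was higher, Pdk2 (0.74), a paralogue of Pdk1, and 0 were lower. Of 14 partners of HIF and MYC-MAX the MYC antagonist Mnt was higher (0.74) and 0 were lower.

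The third question was whether the tamoxifen effect differed between the genotypes, which sets the deletion apart from tamoxifen itself. The difference was called for 1 of 33 members, against 1.14% of 17966 genes (0.545% higher and 0.596% lower). Eno2 rose with tamoxifen in flox cells relative to control cells by 1.42 ± 0.22 (2.67-fold, interval 0.89 to 1.95, limma adjusted p = 0.0481). This value lies next to the threshold: it was 1.17 to 1.67 with single arrays left out and was then called only without the first array of control cells without tamoxifen (1.57), and 2.22 in the deposited value table, where it was not called. Without that control array Hk2 and Ndrg1 were called as well. Hk2 had a difference of -1.21 ± 0.22 (interval -1.75 to -0.68, limma adjusted p = 0.066), Bnip3l 0.73 ± 0.15 (0.0878), Ndrg1 -1.28 ± 0.33 (0.129), Aldoc 0.66 ± 0.17 (0.139) and Slc2a3 -0.53 ± 0.16 (0.191). For Vegfa the difference was positive, 0.78 ± 0.24 (interval 0.22 to 1.35, limma adjusted p = 0.183), as the difference between cells with and without tamoxifen was larger in size in control cells. The other 26 members had intervals that took in 0. In all 7 members named here the tamoxifen effect differed at an unadjusted p under 0.05, and 6 of the differences were not called over all genes. Such an unadjusted p was found for 2764 of the 17966 genes. Of the further genes Rora was called higher (1.10), the 1 call among 42 hypoxia genes.

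The fourth question set the genotypes against each other under the same treatment. With tamoxifen, flox cells differed from control cells in 10 of 33 members, 7 higher and 3 lower, against 11.2% of 17967 genes (5.42% higher and 5.83% lower). Higher in flox cells were Aldoc, Eno2, Tpi1, Bnip3l, Pdk1, Aldoa and Bnip3, and lower were Ndrg1, Hk2 and Slc2a3. This comparison shares the arrays of flox cells with tamoxifen with the one above, so Eno2, Hk2, Ndrg1, Bnip3l and Aldoc are not found independently here. Aldoc differed by 1.18 ± 0.12 (2.27-fold higher, interval 0.89 to 1.47, limma adjusted p = 0.00628), the largest positive difference, with 1.00 and 1.36 within the experiments. Ndrg1 differed by -1.40 ± 0.23 (adjusted p = 0.0177), Eno2 by 0.92 ± 0.16 (0.0191), Hk2 by -0.88 ± 0.16 (0.022) and Bnip3l by 0.68 ± 0.11 (0.0161), all in limma.

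For several glycolytic enzymes and Pdk1 the mean of flox cells was above that of control cells both with and without tamoxifen, although 4 of 15 enzymes were called higher with tamoxifen (Aldoa, Aldoc, Tpi1 and Eno2) and 0 of 15 were called without it. Tpi1 differed by 0.76 ± 0.14 with tamoxifen (limma adjusted p = 0.0221) and 0.53 ± 0.14 without (0.0901). Pdk1 differed by 0.67 ± 0.13 with (0.0271) and 0.38 ± 0.13 without (0.156). Aldoa, whose ratios were -0.56 and -0.16 in flox cells with tamoxifen, -0.65 and -0.47 in flox cells without, -1.06 and -0.74 in control cells with, and -1.20 and -0.57 in control cells without tamoxifen, differed by 0.54 ± 0.13 with (0.048) and 0.32 ± 0.13 without (0.209). Bnip3 differed by 0.49 ± 0.11 with (0.0393) and 0.61 ± 0.11 without (0.0483). With tamoxifen the calls of Aldoa and Bnip3 were each lost in 12 of 19 processing alternatives, and those of Tpi1 and Pdk1 each in 6.

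Without tamoxifen Bnip3 was the 1 member called, against 2.88% of 17967 genes (1.44% higher and 1.44% lower). An unadjusted p under 0.05 was found for 4154 of the 17967 genes and for 13 of the 33 members. Among these were Ldha (0.69 ± 0.22, limma adjusted p = 0.14), Pgam1 (0.57 ± 0.20, 0.158), Pgk1 (0.50 ± 0.17, 0.148), Eno1 (0.41 ± 0.15, 0.181), Pfkl (0.60 ± 0.15, 0.0853) and Aldoc (0.52 ± 0.12, 0.0727). These were all higher in flox cells. Vegfa went the other way without tamoxifen, with the lowest difference of the members (-0.75), as did Eno2 (-0.50), and neither was called. With tamoxifen Ldha, Pgam1, Pgk1 and Eno1 differed by 0.58, 0.54, 0.61 and 0.49, also not called. The median difference of the 15 enzymes was 0.49 with tamoxifen and 0.33 without. Over all 33 members it was 0.15 with and 0.23 without, and 26 and 23 of them were above 0, while the median of all genes was -0.01 with tamoxifen and 0.00 without. A second Tpi1 probe gave 0.80 with tamoxifen and 0.57 without, and the further Ldha probes gave 0.23 and 0.29 with and 0.41 and 0.53 without.

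**Figure D5:**
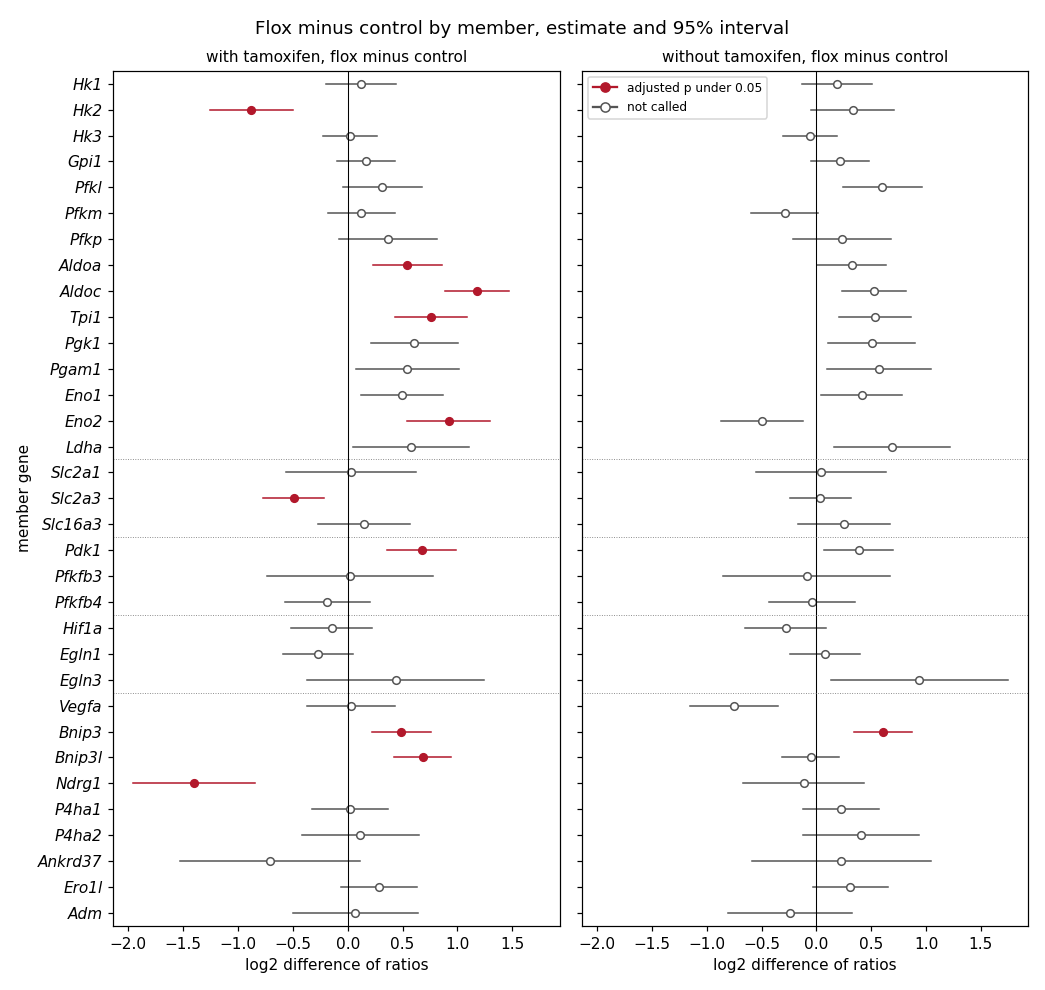
Log2 difference of day 3 over day 0 ratios, flox minus control, for each member with the 95% interval of the limma fit, with tamoxifen (left) and without it (right), 2 arrays per group. Filled red points are called. Most enzymes from Pfkl to Ldha lie right of 0 in both panels, with Eno2 to the left without tamoxifen, and Hk2, Slc2a3 and Ndrg1 have intervals left of 0 with tamoxifen.

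Each ratio holds the day 0 RNA of its own genotype, and so a difference between the genotypes can stand in either channel. In the day 0 channel flox cells differed from control cells by -0.16 and -0.12 for Tpi1 in the 2 experiments, -0.33 and -0.17 for Aldoa, -0.26 and -0.43 for Aldoc, -0.26 and -0.11 for Ldha and -0.08 and -0.33 for Bnip3. These genes were thus a little lower at day 0 in flox cells in both experiments, and a lower day 0 level makes the ratio higher. For Slc2a3 the day 0 channel was 0.67 and 0.23 higher in flox cells, and the difference with tamoxifen, -0.49 in the ratios, was 0.051 in the day 3 channel alone (limma adjusted p = 0.798, the highest over its alternatives). Hk2 and Ndrg1 had no shared direction at day 0, with 0.16 and -0.34 for Hk2 and 0.07 and -0.71 for Ndrg1. The summed day 0 intensity of neutrophil markers was 777957 to 896228 on flox arrays and 507709 to 604207 on control arrays. Stromal sums were 37264 to 40737 on flox arrays and 18562 to 26687 on control arrays. Megakaryocyte sums were also higher on flox arrays, and those of the other marker lists overlapped. Their part in the differences was not tested.

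The genotype calls also rested on few arrays. With tamoxifen 0 members were called without either array of control cells with tamoxifen, when 0 and 26 of all genes were called, and 1 without either array of flox cells with tamoxifen. Leaving out either array of flox cells without tamoxifen gave 7 calls and either array of control cells without tamoxifen 13. The share of all genes called also moved with each of these arrays. With no replicate block 2.95% of all genes and 3 members were called, Aldoc, Eno2 and Bnip3l, all higher. With median centring 8.98% of all genes and 5 members were called, Aldoc and Eno2 higher and Hk2, Ndrg1 and Ankrd37 lower. The 5 did not include Tpi1, Bnip3l, Pdk1, Aldoa, Bnip3 or Slc2a3. In cells without tamoxifen, Bnip3 was not called when any 1 of the 8 arrays was left out, with values between 0.52 and 0.69 and limma adjusted p between 0.080 and 0.331. The cycling markers were higher in flox than in control cells without tamoxifen in 6 of 9 genes (median 0.81) and in 1 of 9 with tamoxifen (median -0.03). Megakaryocyte markers were lower in flox cells in 6 of 10 genes and higher in 1 with tamoxifen and lower in 1 of 10 without, with medians of -0.61 and -0.69. Neutrophil markers were lower in 5 of 15 genes with tamoxifen (median -0.25) and in 2 of 15 without (median -0.24). With tamoxifen 3 of 6 B lineage markers were lower and 1 higher (median -0.51), 3 of 12 macrophage markers were lower (median -0.10), 1 of 9 stromal markers was higher (median 0.66) and 0 of 8 erythroid markers were called. Without tamoxifen 0 genes of these 4 lists were called. The part of these markers in the members' differences was not tested.

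Further genes of these pathways were compared between the genotypes as well. With tamoxifen, where 11.2% of all genes were called, 1 of 19 glycolysis genes was lower in flox cells, Adpgk (-1.07), and 0 were higher. Of 42 hypoxia genes 6 were higher, among them Rora (0.91), Cited2 (0.85), Mif (0.81) and Slc6a8 (0.78), and 2 were lower. Hif3a, for instance, differed by -1.19: its ratios were -0.36 and 0.01 in flox cells with tamoxifen, 0.66 and 0.75 in flox cells without, 1.37 and 0.65 in control cells with, and 1.75 and 1.28 in control cells without tamoxifen. Of 23 genes of pyruvate oxidation and the pentose phosphate pathway 2 were higher, Pdp1 (1.20), a phosphatase that opposes Pdk1, and Pdhb (0.44), a subunit of pyruvate dehydrogenase, and 0 were lower. Of the 14 partners 1 was higher, Mnt (0.66), and 2 were lower, Egln2 (-0.51), a HIF prolyl hydroxylase that is also among the hypoxia genes, and Mycn (-1.21). Without tamoxifen the 1 call among these lists was Pfkfb1 (0.73), a paralogue of Pfkfb3 and Pfkfb4.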

How the data were processed

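Day 3 and day 0 RNA of 4 groups was measured on 8 dual-colour Agilent arrays. Agilent Feature Extraction 10.7.3.1 was used by the authors, per the submitters' processing notes. Their deposited files give spot and local background intensity in both channels, other columns with flags of 0 or 1, and a log10 ratio that the authors had normalized with LOWESS and surrogates for low signals, per the file headers. A deposited value table repeats that log10 ratio as day 3 over day 0 (to within 5e-10 of the scanner ratio turned for the dyes), and 25.7% to 30.8% of the values are 0.

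Spot means were corrected with normexp (offset 50) and normalized by loess within each array (limma 3.58.1, R 4.3.3, data.table version 1.17.8). Outlier spots were dropped and spots of 1 probe averaged. Probes well above background on both arrays of at least 1 group in either channel were kept, 22407 of 39429, and gave, with the brightest probe per deposited gene name, 17970 genes, 84 with a missing value on an array. The model was 4 group means plus the experiment, with 3 residual and 3.46 prior degrees of freedom; tests are two-sided. The experiment is in the model because the design text pairs the arrays by it: deviations from the group mean correlated between groups at 0.31 to 0.73. Probe positions are on mm9, per the file headers.

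The members and all gene lists were chosen with earlier results of these data known. The named genes followed a rule: members called in a tamoxifen or genotype comparison, the 8 smallest p for tamoxifen in flox cells, and up to 6 of the largest changes each way in control cells without tamoxifen; of further lists, up to 4 called genes each way with the smallest p. The method was tested on simulated data with independent errors on each array, which did not copy the shared day 0 RNA. Alternatives were no or other normalization, background correction, filters, probe averaging, the deposited value table, no replicate block, a random block for the shared day 0 RNA, fewer arrays and the day 3 channel alone. Promoter windows are RefSeq, GRCm38.p6. Exon and UTR annotation of the probes was not used here.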

Additional observations from a re-analysis of the deposited data

Results flagged for a closer look

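Between the genotypes 12 values of the members differed by a test of the difference itself. The tamoxifen effect on Eno2 differed by 1.42 between flox and control cells. With tamoxifen, flox minus control was 1.18 for Aldoc, 0.92 for Eno2, 0.76 for Tpi1, 0.68 for Bnip3l, 0.67 for Pdk1, 0.54 for Aldoa, 0.49 for Bnip3, -0.49 for Slc2a3, -0.88 for Hk2 and -1.40 for Ndrg1. Without tamoxifen it was 0.61 for Bnip3. All are on the log2 scale and were called in limma over all genes, and groups of 2 arrays were too small for a check of outliers.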

How the results depend on the processing

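There were 19 alternatives in all, of which those that apply were run for each value. The counts of members called at day 3 against day 0 stayed within 1.5 times in each group; with single arrays left out they were 21 to 26 in flox cells with tamoxifen, 16 to 27 in flox cells without, 20 to 24 in control cells with and 20 to 21 in control cells without tamoxifen. For tamoxifen in flox cells the count of 6 became 3 with no replicate block (experiment term) and 11 with only the arrays of the groups compared, and 0 to 8 with single arrays left out. Its share of all genes called ran from 1.24% to 25.5%. In control cells the 0 became 1 with median centring, and stayed at 0 with single arrays left out. For the difference of effects the 1 call became 0 with no background correction, with scale normalization, with the deposited value table, with the strict filter and with no replicate block, 3 with median centring or the day 3 channel alone and 4 with a random block for arrays of 1 day 0 RNA (correlation 0.325); it was 0 to 3 with single arrays left out. For flox minus control with tamoxifen the 10 calls became 5 with median centring and 3 with no replicate block, and 0 to 13 with single arrays left out. Without tamoxifen the 1 call, Bnip3, became 0 with the deposited value table, the mean of probes, no replicate block, the random block or only the compared arrays, and 0 with each single array left out. It became 2 with scale normalization (Bnip3 and Vegfa) or the day 3 channel alone (Pfkm and Vegfa), and with median centring the 1 call was Egln3, so Bnip3 lost its call in 15 of 19 alternatives. The single value that changed sign was that of Slc2a3, flox minus control with tamoxifen, 0.051 in the day 3 channel alone; the other 26 named values kept their sign. The cause was not tested, except that fewer arrays leave fewer degrees of freedom. A fit of only the compared arrays was not possible for day 3 against day 0, since 1 group leaves no residual degrees of freedom, and for the difference of effects it is the same fit. The precision is limited by 2 arrays per group and, for dim probes such as Eno2, by the signal over background.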
